A study of Homo sapiens with 6 samples.

Results

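Messenger RNA levels of 35 genes of glycolysis and of the response to hypoxia were compared between drug-treated and vehicle-treated Rh30 cells. The genes were taken by symbol and form 2 groups, namely 19 glycolytic enzymes from hexokinase to lactate dehydrogenase, and 16 genes known to respond to the hypoxia-inducible factors (HIF). Each of the 35 symbols had a row among the 35268 named genes of the table, and 32 of them reached a mean of 10 normalized counts over the 6 libraries, the limit for testing, as did 13930 genes in all. The 3 that did not were the aldolase ALDOC, the muscle phosphoglycerate mutase PGAM2 and the carbonic anhydrase CA9. Rh30 is an established line derived from a fusion-positive rhabdomyosarcoma, a childhood tumor with myogenic features driven by the PAX3-FOXO1 fusion protein. The cells were exposed for 24 hours to 1 µM YK-4-279 in DMSO, or to DMSO alone, with 3 libraries per group, and the comparison asks how the drug affects gene expression. YK-4-279 is a small molecule that acts on protein interactions of ETS transcription factors, and the study used it, as a racemic mixture, to ask whether it disrupts the binding of ETS1 to PAX3-FOXO1. Both groups were of the same line in the same medium, RPMI with fetal bovine serum and sodium pyruvate, and the oxygen level is not given in the sources used here. All values are thus from 1 cell line, 1 dose and 1 time, and since the labels do not say that replicates were separate cultures, the p-values measure only the spread between these libraries.

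Glycolysis splits glucose into pyruvate in the cytosol, and lactate dehydrogenase then turns pyruvate into lactate, which lets the pathway run without respiration. HIF is a dimer whose alpha subunit is hydroxylated by the EGLN oxygen sensors when oxygen is present and is then destroyed through VHL. When oxygen is scarce, the alpha subunit accumulates, pairs with ARNT and binds short elements with an ACGTG or GCGTG core near genes for glucose uptake, glycolysis, mitophagy and blood vessel growth.

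With YK-4-279, NDRG1 and BHLHE40 rose and GPI and BNIP3 fell, and the other 28 genes tested did not pass the threshold. NDRG1, a stress-responsive gene with a role in growth arrest and differentiation, was 1.57-fold higher, and BHLHE40, a transcriptional repressor also known as DEC1, was 1.37-fold higher. GPI, the enzyme of the second step of glycolysis, and BNIP3, a mitophagy receptor of the outer mitochondrial membrane, had YK-4-279 to DMSO ratios of 0.859 and 0.792. In all, 4 of the 32 genes (12.5%) had an adjusted p-value under 0.05 (limma), beside 3.41% of all genes tested. In the 2 directions, 2 genes were higher and 2 lower, beside 1.26% of all genes higher and 2.15% lower. Over the 17 glycolytic enzymes tested the median log2 fold change was -0.11, and 13 lay below 0 and 4 above, and the 15 HIF-responsive genes had a median of -0.01, with 8 below 0 and 7 above. The median over all genes tested was -0.01. The sign of the HIF-responsive median changed between settings, from -0.03 to 0.04, and the difference between the 2 groups of genes was not tested.

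**Figure D1:**
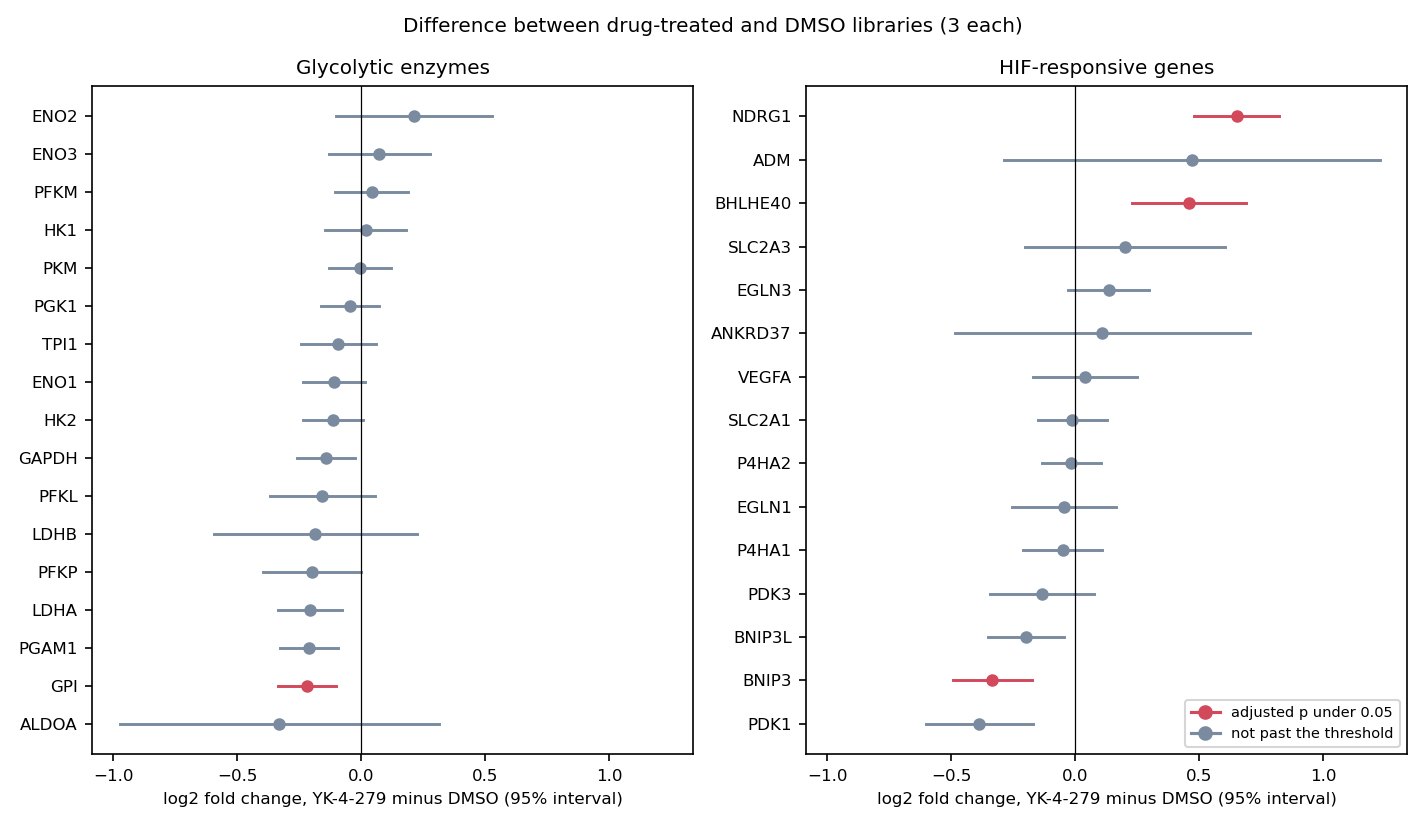
Log2 fold change of each gene tested (YK-4-279 minus DMSO, 3 libraries each) with its 95% interval from limma, for glycolytic enzymes on the left and HIF-responsive genes on the right. Red marks an adjusted p-value under 0.05, which 1 enzyme (GPI) and 3 HIF-responsive genes (NDRG1, BHLHE40 and BNIP3) reached, and most enzymes lie a little to the left of 0.

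The depth was between 16724650 and 24677433 reads on named genes per library, with the smallest step between values in a library taken as 1 read. DMSO replicate 1 stood apart from the rest, with the fewest reads, 6.05% of them on mitochondrial genes against 4.74% to 5.03% in the other libraries, and a mean correlation of 0.989 with the others against at least 0.992. Some of the results that rest on this library are given below with and without it. The myogenic markers of rhabdomyosarcoma were abundant, with MYOD1 between 34516 and 39146 and MYOG between 11115 and 16587 normalized counts, whereas MYF5 was at 0 in 5 of the 6 libraries. The summed level of 4 epithelial markers was between 50.9 and 89.97, of 4 endothelial markers between 211 and 309, mostly TEK, and of 4 leukocyte markers between 0 and 1.00. In bulk RNA a lower level per cell and fewer cells expressing a gene cannot be told apart.

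The promoters of GPI, BNIP3 and BHLHE40, which passed the threshold, are shown because they hold the HIF core letters, each as the 250 bases before the gene's start in RefSeq, on GRCh38.p14. Capitals mark ACGTG on either strand, which reads CACGT on the opposite strand, and CACGTG, the palindrome that contains both. The GPI window lies at chr19:34364742-34364991 on the plus strand, inside the longer GENCODE span of the gene, and holds 1 match, whose first base is at -162. The BNIP3 window lies at chr10:131981924-131982173 on the minus strand and has a single CACGTG, counted as 2 overlapping matches at -134 and -133. The BHLHE40 window lies at chr3:4979187-4979436 on the plus strand and has 4 matches, at -245 and -244 in 1 CACGTG, and at -174 and -149.
GPI: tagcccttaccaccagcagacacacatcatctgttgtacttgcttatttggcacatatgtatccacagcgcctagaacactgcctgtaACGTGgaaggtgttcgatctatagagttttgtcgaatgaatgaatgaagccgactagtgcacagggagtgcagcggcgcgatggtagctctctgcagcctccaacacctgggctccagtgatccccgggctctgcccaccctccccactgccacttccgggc
BNIP3: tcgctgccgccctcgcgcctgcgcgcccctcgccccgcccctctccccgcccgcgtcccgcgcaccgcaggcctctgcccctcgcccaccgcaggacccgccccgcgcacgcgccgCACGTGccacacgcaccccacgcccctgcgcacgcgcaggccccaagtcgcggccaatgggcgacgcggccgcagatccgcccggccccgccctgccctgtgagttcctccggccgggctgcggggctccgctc
BHLHE40: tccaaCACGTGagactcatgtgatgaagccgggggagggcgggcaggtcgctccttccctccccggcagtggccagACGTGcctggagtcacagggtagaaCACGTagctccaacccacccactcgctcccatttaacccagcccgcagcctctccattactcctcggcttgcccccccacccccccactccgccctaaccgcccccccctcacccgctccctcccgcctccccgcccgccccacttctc

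Of the 35 genes, 31 had a promoter in the RefSeq table, and 15 of these (48.4%) held ACGTG within 250 bases upstream. The promoters of NDRG1, BNIP3L, SLC2A3 and VEGFA were not analysed here. The share was 18.7% of 27305 promoters of all genes and 23.3% of the 10946 promoters of genes tested. By group it was 8 of 19 for glycolytic enzymes and 7 of 12 for HIF-responsive genes. LDHA, the muscle-type lactate dehydrogenase, had 5 matches, at -185 and -184 in 1 CACGTG, at -87 and -86 in another, and at -73. Each CACGTG counts as 2 matches, so LDHA did not have more separate sites than BHLHE40. HK1, TPI1, PKM, PDK1 and SLC2A1 had 0. CACGTG, which overlaps ACGTG, was found in 19.4% of the 31 against 6.49% of all promoters and 8.88% of those of genes tested. The other HIF core, GCGTG, was found in 32.3% against 31.9% of all promoters and 45.3% of those of genes tested, and the ETS core CCGGAA in 19.4% against 14.8% of all promoters and 24.8% of those of genes tested. GPI was among those with CCGGAA and BNIP3 and BHLHE40 were not. These matches describe letters in 1 window and say nothing of binding.

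Glycolysis begins with the hexokinases, which trap glucose as glucose-6-phosphate, and neither passed the threshold. HK2, the inducible and more abundant form, measured 3118, 3269 and 3343 normalized counts in the DMSO libraries, in the order of their numbers, and 3002, 3025 and 2966 in those of YK-4-279. Every drug-treated library thus lay below all DMSO libraries, and the log2 fold change was -0.11 (SE 0.06, limma adjusted p = 0.303). HK1, the constitutive form, overlapped between the groups, at 1701 ± 138 in DMSO and 1720.5 ± 122 with YK-4-279 (SD over 3 libraries), and its log2 fold change was 0.02.

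GPI, which converts glucose-6-phosphate to fructose-6-phosphate, was the glycolytic enzyme that passed the threshold. Its level was 6277, 6332 and 6098 normalized counts in the DMSO libraries and 5251, 5551 and 5267 in the YK-4-279 libraries. The groups did not overlap, and the gap between them was wider than the range within either. The log2 fold change was -0.22 (SE 0.05, limma adjusted p = 0.0418), with a 95% interval of -0.34 to -0.10. A second protein-coding gene model on the same strand shares 13.1% of the exon bases of the canonical GPI transcript (chr19:34359480-34402413, hg38), so part of its reads could be divided between the models. GPI passed in 6 of the 16 other settings tried. Among others, the call was lost without DMSO replicate 2 or 3 or YK-4-279 replicate 1, 2 or 3 (limma adjusted p = 0.0746, 0.101, 0.249, 0.132 and 0.214 in turn), under TMM or quantile scaling (0.0503 and 0.0881), with no filter on the mean (0.0629) and with no trend in eBayes (0.169).

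The 3 phosphofructokinases, which catalyze the committed step, did not move alike in value, and none passed. PFKL, the liver-type subunit and the one with the highest mean count, had 2149.8, 2969.8 and 2703 normalized counts in DMSO and 2436, 2379 and 2147 with YK-4-279. DMSO replicate 1 lay among the drug-treated libraries, while DMSO replicates 2 and 3 lay above all of them, and the log2 fold change was -0.16 (SE 0.10, adjusted p = 0.416 in limma). PFKP, the platelet-type subunit, behaved likewise, at 839.8, 1003 and 1091 in DMSO and 892, 843 and 809 in treated libraries, and had a log2 fold change of -0.20 (SE 0.09, limma adjusted p = 0.268). PFKM, the muscle-type subunit, had 2166 ± 179 in DMSO and 2227 ± 58.0 in treated cells (SD, n = 3 each), with overlapping groups and a log2 fold change of 0.04.

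ALDOA, the main aldolase of muscle, was near the limit of testing here. It had 22.70, 15.99 and 18.37 normalized counts in DMSO and 16.28, 14.13 and 14.01 after treatment, and its log2 fold change of -0.33 had a 95% interval of -0.97 to 0.31. A second protein-coding gene model on the same strand covers 89.8% of the exon bases of its canonical transcript in GENCODE, so its value is uncertain and cannot be read as the level of aldolase A. ALDOC, the brain form, was at most 10.99 normalized counts in any library and was not tested.

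Of the triose steps, GAPDH and TPI1 were somewhat lower in value and PGK1 close to its DMSO level. GAPDH, which oxidizes glyceraldehyde-3-phosphate, measured 23569.8, 25220.0 and 24385 normalized counts in DMSO and 21673, 22823 and 21850.0 in YK-4-279 libraries. All 3 treated libraries lay below the DMSO libraries, but the log2 fold change of -0.14 did not pass (SE 0.05, limma adjusted p = 0.181). TPI1, which interconverts the triose phosphates, had 11507 ± 1199 in DMSO and 10757 ± 231 with YK-4-279 (SD, n = 3 each), and its log2 fold change was -0.09, with DMSO replicate 1 below every treated library. PGK1, which makes the first ATP of the payoff phase, overlapped between the groups and had a log2 fold change of -0.05 (95% interval -0.16 to 0.07).

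PGAM1, the mutase that moves the phosphate of 3-phosphoglycerate, came just short of the threshold. It was at 7695, 7461 and 7299 normalized counts in DMSO and 6441, 6694 and 6277 after YK-4-279, without overlap. Its log2 fold change of -0.21 (SE 0.05) was near that of GPI, with a limma adjusted p of 0.0514. PGAM2, the muscle form, is listed at 0 in all 6 libraries, and DBNL on the opposite strand covers all of its exon bases.

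The enolases form phosphoenolpyruvate. ENO1, the ubiquitous form, had 42481, 46047 and 45044 normalized counts in DMSO and 40670.0, 43346 and 39785 with the drug. YK-4-279 replicate 2 lay above DMSO replicate 1, so the groups overlapped, and the log2 fold change was -0.11 (SE 0.06, limma adjusted p = 0.335). ENO2, the neuronal form, was at 73.1, 84.9 and 85.2 in DMSO against 98.5, 91.3 and 92.0 with the drug. It was the only enzyme of the 17 tested whose treated libraries all lay above all DMSO libraries. That is 5.88% of the enzymes, beside 10.9% of all genes tested. Its log2 fold change of 0.21 had a 95% interval of -0.10 to 0.53 and did not pass (limma adjusted p = 0.46). ENO3, the muscle form, overlapped between the groups, with a log2 fold change of 0.07.

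The pathway ends in pyruvate kinase and lactate dehydrogenase, which differed in value. PKM, which makes pyruvate and ATP, was the most abundant of the 35 genes and had 59016, 64155 and 62339 normalized counts in DMSO and 60418, 64106 and 60498 with YK-4-279. The groups overlapped almost fully, and the log2 fold change was 0.00 (95% interval -0.13 to 0.12). LDHA had 20192, 18354 and 18228 in DMSO and 15686, 17030.0 and 16457 in treated libraries, with no overlap, and its log2 fold change of -0.21 (SE 0.06) did not pass, at a limma adjusted p of 0.0761. LDHB, the heart-type subunit, was low, at 94.6, 65.0 and 60.1 against 65.1, 60.9 and 63.0, and DMSO replicate 1 alone was high. Another gene model on its strand shares 76.5% of its exon bases, so the level of LDHB is uncertain.

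**Figure D2:**
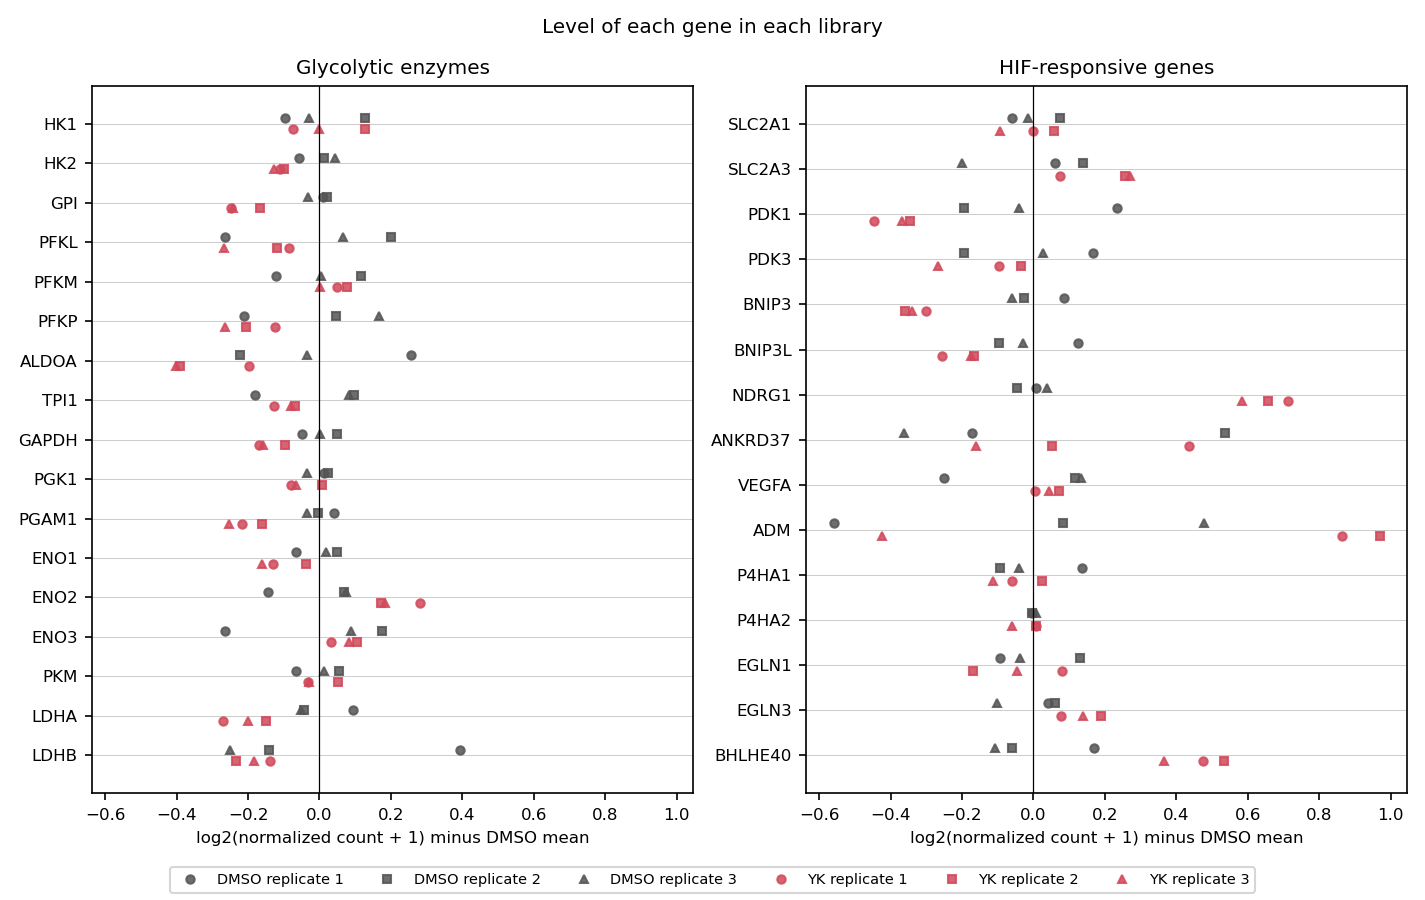
Level of each gene in each of the 6 libraries as log2(normalized count + 1) minus the mean of the 3 DMSO libraries, with DMSO in grey, YK-4-279 in red and a marker shape per replicate number. All red points lie right of the grey ones for ENO2, NDRG1, EGLN3 and BHLHE40, and left of them for HK2, GPI, GAPDH, PGAM1, LDHA, PDK1, BNIP3 and BNIP3L.

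Set against the whole table, non-overlap was not rare. Every YK-4-279 library lay above every DMSO library for 4 of the 32 genes tested (12.5%), beside 10.9% of all genes tested. Every treated library lay below every DMSO library for 8 of the 32 (25.0%), beside 15.1% of all genes. Of these 8, 5 were glycolytic enzymes (HK2, GPI, GAPDH, PGAM1 and LDHA) and 3 were HIF-responsive genes (PDK1, BNIP3 and BNIP3L). The sum of the 19 enzymes was 188373, 201149 and 195965 normalized counts in the DMSO libraries, and 179992, 190566 and 180056 in the treated ones. This was 0.938% of all normalized counts in DMSO and 0.915% with the drug, and these sums overlap between the groups.

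Among the HIF-responsive genes, those of glucose entry did not pass. SLC2A1, which encodes the glucose transporter GLUT1, had 2149.8, 2363 and 2220.1 normalized counts in DMSO and 2239.9, 2336 and 2102 with YK-4-279. The groups overlapped, and its log2 fold change of -0.01 had a 95% interval of -0.15 to 0.13. SLC2A3, for GLUT3, was low, at 49.2, 52.0 and 40.9 in DMSO and 49.7, 56.5 and 57.0 after treatment, with a log2 fold change of 0.20 (limma adjusted p = 0.599).

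The pyruvate dehydrogenase kinases keep pyruvate out of the mitochondrial citrate cycle. PDK1 had 894, 664 and 739.8 normalized counts in DMSO and 558, 599 and 589 with YK-4-279. The treated libraries lay below the DMSO libraries and close together, with DMSO replicate 1 the highest, and the log2 fold change of -0.39 (SE 0.10) had a limma adjusted p of 0.0512, just outside the threshold. PDK3 had 875, 681 and 795 in DMSO and 729, 761 and 647 in treated libraries, overlapping, and a log2 fold change of -0.13 (limma adjusted p = 0.488).

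Both mitophagy receptors were lower in all treated libraries, and BNIP3 passed. BNIP3 (chr10:131967684-131981967, hg38, minus strand) had 815, 754 and 736 normalized counts in the DMSO libraries and 623, 598 and 606 in the YK-4-279 libraries. There was no overlap, and the log2 fold change was -0.33 (SE 0.07, limma adjusted p = 0.0284), with a 95% interval of -0.49 to -0.17. BNIP3 has many processed copies in the genome, and 35 pseudogene rows of it summed to 87.2 ± 12.2 normalized counts in DMSO and 80.2 ± 16.4 in treated cells (SD over 3 libraries), 12.2% of the level of BNIP3. Reads of these copies may have been exchanged with the gene. BNIP3 passed in 9 of the 16 other settings. Among others, the call was lost without DMSO replicate 3 or without YK-4-279 replicate 1, 2 or 3 (limma adjusted p = 0.0610, 0.137, 0.159 and 0.144 in turn), under quantile scaling (0.0534) and with no trend in eBayes (0.109). BNIP3L, also known as NIX, had 1780.4, 1527 and 1601 in DMSO and 1368, 1456 and 1446 with YK-4-279, also without overlap, with a log2 fold change of -0.20 (SE 0.07, limma adjusted p = 0.152).

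The secreted factors did not pass. VEGFA, the main angiogenic growth factor among HIF targets, had 629, 811 and 819.9 normalized counts in DMSO and 749.8, 787 and 771 in treated libraries. DMSO replicate 1 was the lowest and the other 5 libraries lay within a narrow range, so that the log2 fold change was 0.04 (SE 0.10). ADM, the vasodilator peptide adrenomedullin, was low and scattered, at 22.7, 36.0 and 47.6 in DMSO and 62.6, 67.4 and 25.0 with the drug, and its log2 fold change of 0.47 had a 95% interval of -0.29 to 1.23.

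The collagen prolyl hydroxylases P4HA1 and P4HA2 and the oxygen sensors EGLN1 and EGLN3 did not pass. P4HA2 measured 3014, 3013 and 3033 normalized counts in DMSO and 3034, 3035 and 2898 with the drug, a log2 fold change of -0.02 (95% interval -0.13 to 0.10). P4HA1, at 1676, 1429 and 1482 in DMSO and 1462, 1551 and 1411 in treated libraries, had -0.05 (95% interval -0.21 to 0.11) on the same scale. EGLN3, an oxygen sensor that HIF itself induces, was at 716, 726 and 649 in DMSO and 735, 793 and 766 after treatment, with every treated library above the DMSO libraries, but its log2 fold change of 0.13 did not pass (SE 0.08, limma adjusted p = 0.367). EGLN1, the main HIF hydroxylase, had a log2 fold change of -0.04 (95% interval -0.25 to 0.17), and another gene model on its strand shares 69.3% of its exon bases.

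NDRG1 and BHLHE40 were the 2 rises that passed. NDRG1 (chr8:133237175-133302022, hg38, minus strand) had 392, 378 and 401 normalized counts in DMSO and 640.1, 615 and 585 with YK-4-279. The lowest treated library was well above the highest DMSO library, and the log2 fold change was 0.65 (SE 0.08, limma adjusted p = 0.00137), with a 95% interval of 0.48 to 0.82. A lncRNA model on the same strand shares 24.9% of its exon bases. BHLHE40 (chr3:4979437-4985323, hg38, plus strand) had 252, 215 and 208 in DMSO and 312, 325 and 289 after treatment. The groups did not overlap, and the log2 fold change was 0.46 (SE 0.11, limma adjusted p = 0.0349), with a 95% interval of 0.23 to 0.69. The call of NDRG1 was kept in each of the 16 other settings tried. That of BHLHE40 was kept in 8 of them, and was lost, among others, without DMSO replicate 2 or 3 or any 1 treated library (limma adjusted p = 0.0537, 0.109, 0.188, 0.180 and 0.104 in turn), under quantile scaling (0.0583) and with no trend in eBayes (0.119). ANKRD37 was at 24.2 to 46.0 normalized counts over the 6 libraries, with a log2 fold change of 0.11 and a 95% interval of -0.48 to 0.70. UFSP2 on the opposite strand shares 54.7% of the exon bases of ANKRD37. CA9, which is often used as a marker of hypoxia, was listed at 0, 0 and 0.835 normalized counts in DMSO and at 1.71, 3.26 and 2.001 with the drug, too few reads for a test or a fold.

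Levels of different genes were compared per kilobase of canonical transcript, as means over the 6 libraries. PKM stood at 26792, ENO1 at 24085 and GAPDH at 18096 normalized counts per kilobase, ranks 32, 39 and 60 among 13702 genes with a known length. TPI1 and LDHA followed at 8240 and 7880, ranks 108 and 112, so that these enzymes were among the most abundant messages of the cells. The genes that passed the threshold were lower on this scale, with GPI at 1405, BNIP3 at 447, NDRG1 at 166 and BHLHE40 at 84.6. PDK1 was at 47.9, with a canonical transcript of 14072 bases, the length of which makes its value low.

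**Figure D3:**
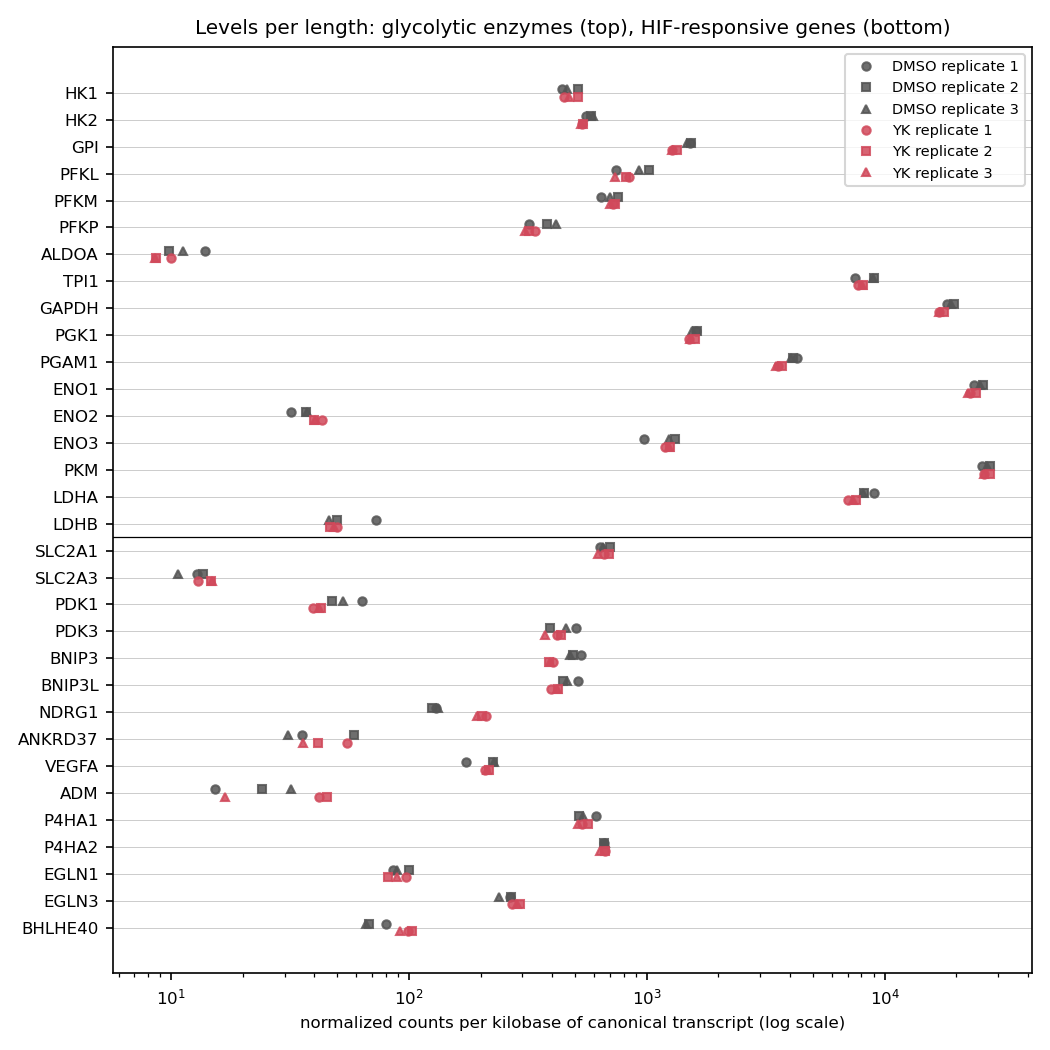
Normalized counts per kilobase of canonical transcript of each gene tested (log scale), with a point for each of the 6 libraries, DMSO in grey and YK-4-279 in red, glycolytic enzymes above the line and HIF-responsive genes below it. The genes span from about ALDOA and SLC2A3 at the low end to PKM at the top, and the 2 groups of libraries lie within a small part of that span for every gene.

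Where several genes serve 1 step, their shares were computed per kilobase. HK2 made up 55.7%, 53.0% and 56.3% of hexokinase in the DMSO libraries, and 54.4%, 51.1% and 52.8% with YK-4-279, which overlap. PFKM made up 37.8%, 35.1% and 34.3% of phosphofructokinase in DMSO and 38.1%, 39.3% and 40.1% with the drug. These 2 sets do not overlap, and DMSO replicate 1 lay just under the nearest treated library. The mean share of PFKM was 35.7% ± 1.82 in DMSO and 39.2% ± 1.01 with the drug, and those of PFKL 45.4% ± 1.90 and 43.3% ± 0.930 (SD over 3 libraries). With the longest in place of the canonical transcript the order turned, with PFKM at 45.3% and 49.1% and PFKL at 32.3% and 30.4%. ENO1 held 95.4% of enolase in DMSO and 94.8% with YK-4-279, with ENO3 at 4.47% and 5.02%. LDHA held 99.3% of lactate dehydrogenase in both groups, although LDHB is uncertain, and SLC2A1 held 98.2% and 97.9% of the 2 glucose transporters. No share was tested, and shares of aldolase are not given because ALDOA is uncertain.

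The number of enzymes that passed in limma depended on single libraries, at 1 with all libraries, 9 without DMSO replicate 1, and 0 without any other 1 library, where 3 to 5 had an unadjusted p-value under 0.05. The median deviation of DMSO replicate 1 over the 17 enzymes was -0.07 from their DMSO mean on the log2 scale, against 0.05 and 0.01 in the other DMSO libraries and -0.12, -0.10 and -0.16 in the treated libraries. Without this library, 13 of the 32 genes passed (40.6%), beside 13.1% of all genes tested. The 2 rises were again NDRG1 and BHLHE40, and the 11 falls were HK2, GPI, PFKL, PFKP, TPI1, GAPDH, PGAM1, ENO1, LDHA, PDK1 and BNIP3. In that fit PFKL, TPI1 and PFKP had log2 fold changes of -0.29, -0.18 and -0.30, with limma adjusted p-values of 1.78e-05, 7.07e-04 and 2.15e-04. The median of the enzymes was then -0.14, and PKM stayed near 0, at -0.04. HIF1A, the alpha subunit of HIF-1, was instead high in DMSO replicate 1. It had 4476, 3408 and 3458 in DMSO against 3349.5, 3514 and 3436 with the drug. Its log2 fold change went from -0.13 to 0.00 without that library.

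GC content and transcript length differed between the 2 groups of genes. The median GC content was 54.0% for the enzymes and 46.3% for the HIF-responsive genes, beside 48.5% for all genes with a known transcript, and the median lengths were 2294, 3152 and 3272 bases. When each library's smooth trend on both was removed, 13 of the 32 genes passed, beside 13.7% of all genes tested, and these were the same 13 as without DMSO replicate 1. The median of the enzymes was then -0.17. PDK1, PGAM1, LDHA and GAPDH then had log2 fold changes of -0.38, -0.27, -0.17 and -0.22, with limma adjusted p-values of 9.37e-04, 7.19e-04, 0.00658 and 0.00348. What part GC content, length or DMSO replicate 1 had in these differences was not tested.

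**Figure D4:**
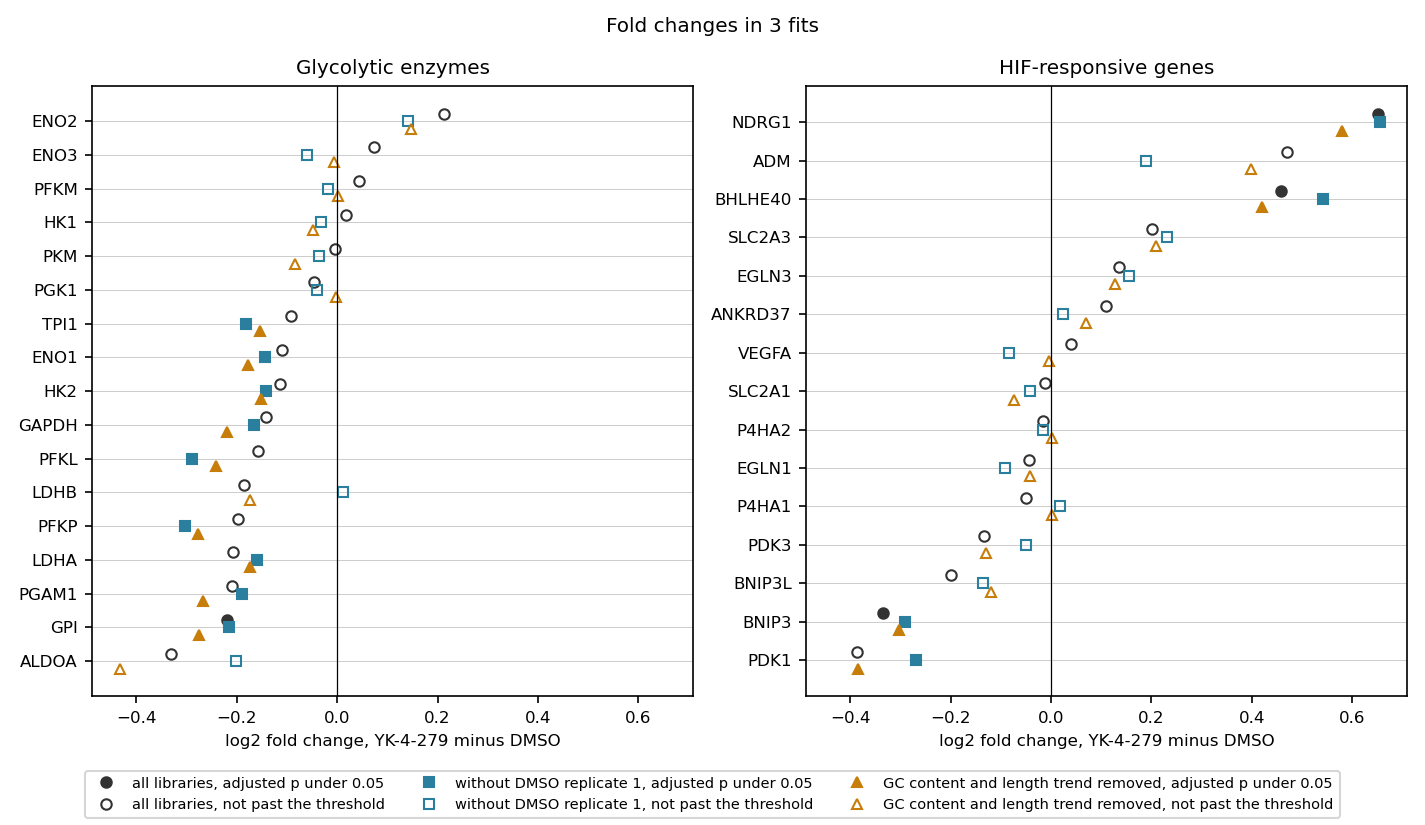
Log2 fold change of each gene tested (YK-4-279 minus DMSO) in 3 fits, namely with all libraries (circles), without DMSO replicate 1 (squares) and with the trend on GC content and length removed (triangles), filled where the limma adjusted p-value was under 0.05. Filled circles mark 4 genes, and filled squares and triangles mark the same 13, of which 9 are glycolytic enzymes.

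Around the 35 genes, other genes of the same pathways were read from the same fit. Of 39 other glycolysis genes, 25 were tested and 1 passed (4.0%, close to the 3.41% of all genes tested). This was PGM1, which links glycogen to glycolysis and fell from 1835 ± 55.9 normalized counts in DMSO to 1552 ± 33.3 after treatment (SD, n = 3), with a log2 fold change of -0.24 and a limma adjusted p of 0.0466. The highest mean count among them was that of BSG, a partner of the lactate transporters, with a log2 fold change of 0.04. Of 9 genes of the pentose phosphate pathway, which branches off at glucose-6-phosphate, 8 were tested and 0 passed in limma, and 0 had an unadjusted p-value under 0.05. PGD, its member with the highest mean count, had a log2 fold change of 0.02.

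Of 39 other HIF target genes, 35 were tested, and 3 rose and 2 fell (14.3%, beside 3.41% of all genes tested). The median log2 fold change was 0.06 beside -0.01 over all genes tested. It was 0.019 beside -0.012 without DMSO replicate 1, and -0.0059 beside -0.026 with the trend on GC content and length removed. HMOX1, which degrades heme, and PPP1R3C, a glycogen-targeting phosphatase subunit, rose by 0.60 and 0.59 on the log2 scale (limma adjusted p = 0.032 and 0.0244). ERO1A, an oxidase of protein folding, fell from 1772 ± 121 in DMSO to 1389 ± 9.26 after treatment (SD, n = 3), with a log2 fold change of -0.35 and a limma adjusted p of 0.0133, and AK4, a mitochondrial adenylate kinase named here after its values were seen, had a log2 fold change of -0.28 (limma adjusted p = 0.0382). TFRC, the member with the highest mean count, and KDM3A had log2 fold changes of -0.07 and -0.03. Of the 16 other settings tried, PGM1 passed in 7, HMOX1 in 11, PPP1R3C in 10 and ERO1A in 12. AK4 did not pass, among others, under TMM or quantile scaling, with a replicate block or without DMSO replicate 3.

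Of 16 regulators of HIF, 15 were tested and 1 passed (6.67%, beside 3.41% of all genes tested). CITED2, which competes with HIF-alpha for the coactivators CREBBP and EP300, rose by 0.44 on the log2 scale, from 725 ± 29.5 normalized counts in DMSO to 982 ± 65.7 after treatment (SD, n = 3), with a limma adjusted p of 0.00966. It passed in 12 of the 16 other settings. CREBBP, the one with the highest mean count, had a log2 fold change of 0.05. ETS1, the factor that the study concerns, had 3478, 3191 and 3409.9 normalized counts in DMSO and 3366, 3343 and 3401 with YK-4-279, a log2 fold change of 0.01 (limma adjusted p = 0.974).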

How the data were processed

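Total RNA was made into directional mRNA libraries and sequenced as paired-end reads. The authors used STAR (2.7.9a in the submitters' processing notes) for alignment to hg38 and for counting reads by gene, ran DESeq2 for their own tests, and deposited a normalized signal per gene, in which each value is a whole multiple, to within 1e-06, of 1 step per library, taken here as 1 read for the depth. The strand setting of the counting is not given in the sources used here, so reads of genes that overlap on opposite strands may not be told apart. Of 35269 rows, the 1 that bore no gene name (at most 6 reads in a library) was dropped. The number of per-sample columns left unused was 0.

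The main test was limma's moderated test (version 3.58.1, R 4.3.3, with a mean-variance trend in eBayes), two-sided, on log2 of the normalized count plus 1. It compared 3 libraries per group, and p-values were adjusted by Benjamini-Hochberg across 13930 genes whose mean was 10 or more. Fold changes of low genes are understated on this scale. The code was tested on simulated data. Replicate numbers were not used as a block, because deviations of same-numbered libraries correlated at -0.0985, -0.0269 and -0.0267. Positions, transcript lengths, GC content (known for 98.4% of genes tested) and overlaps were taken from GENCODE, and promoters from RefSeq. Alternative settings changed the pseudocount (0.5 or 10), the minimum mean (above 0 or 100), the scaling (TMM or quantile) and the variance model (no trend), added a replicate block, removed a smooth dependence on GC content and transcript length per library, or left out 1 library.

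The 35 genes, the pathway lists and the tests were chosen with earlier results of these data known. Values of every library are given for members past the threshold and, in each role, for the ones highest in mean and largest in change. From each pathway list, at most 4 members past the threshold and the one with the highest mean were named, with summary values. KDM3A, ETS1 and HIF1A were named because the study or the pathway centers on them. The values of 1 gene of the pathway lists are not reported here.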

Additional observations from a re-analysis of the deposited data

How the results depend on the processing

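The 475 genes and 4 of the 32 tested members called with all libraries became 277 and 1 under quantile normalization, 33 and 1 under eBayes without trend, and 1913 and 13 once trends on GC content and length were removed. With a replicate block they were 180 and 1, and with both the replicate block and that removal 1848 and 13. The labels do not say whether same-numbered libraries were paired, and no pairing was seen in their deviations. The member called under the block alone was NDRG1. Leaving out 1 library gave 19 to 1823 genes and 1 to 13 members, with fewest genes without YK-4-279 replicate 1 and most without DMSO replicate 1. Without DMSO replicate 2 or 3 it was 676 or 242 genes, and without YK-4-279 replicate 2 or 3, 23 or 46. The enzymes' median stayed below 0 in every setting, at -0.052 under quantile normalization and -0.17 with the trend removed, with or without the block, and at -0.15 to -0.085 without 1 library. NDRG1 was the 1 member called in every setting. The cause of these changes was not tested.

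Some members and pathway genes that had not passed the threshold changed sign. Under TMM scaling PKM was 0.011 and SLC2A1 0.0021. Under quantile normalization PGK1 was 0.024, PKM 0.054, SLC2A1 0.036, ANKRD37 -0.032, P4HA2 0.038 and KDM3A 0.018. With trends on GC content and length removed, with or without the replicate block, HK1 was -0.048, ENO3 -0.0066, VEGFA -0.0048, P4HA1 0.0012, P4HA2 0.0027, BSG -0.062, KDM3A 0.00057, CREBBP -0.022 and PGD -0.023. Leaving out 1 library moved HK1 from -0.037 to 0.081, PFKM from -0.018 to 0.10, ENO3 from -0.059 to 0.16, LDHB from -0.31 to 0.011 and VEGFA from -0.085 to 0.11. It moved P4HA1 from -0.097 to 0.018, P4HA2 from -0.026 to 0.0070, EGLN1 from -0.11 to 0.021, PKM from -0.037 to 0.023, SLC2A1 from -0.048 to 0.029 and ANKRD37 from -0.071 to 0.38. BSG ranged from -0.041 to 0.10, KDM3A from -0.090 to 0.088, PGD from -0.0065 to 0.043 and ETS1 from -0.031 to 0.031.

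Count tests planned with edgeR and DESeq2 were not run, and the deposited values were treated as normalized signal throughout. Dividing by the longest transcript, or by no length, moved most isozyme shares by more than the spread between libraries. The shares of PGAM1 and PGAM2 stayed at 100% and 0% in each case. With no division by length, PFKL stayed near its DMSO share, at 45.2% against 45.4%. With 3 libraries per group, standard errors on the log2 scale were 0.05 for GAPDH, 0.07 for TPI1 and 0.10 for PFKL, and the 95% intervals of HK2 and ENO1 included 0.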
